A study of Homo sapiens with 4 samples.

Results

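The genes described here encode the chaperones, folding enzymes, translocon subunits and degradation factors of the endoplasmic reticulum, together with the stress sensors that regulate them. The set held 36 gene symbols, and each matched 1 of the 22494 rows of the deposited count table. They were chosen by name, with earlier results of these data known, so shares of members set against all genes are descriptions. RNA sequencing of poly(A) RNA had been done on RL-95-2 and HEC-1-A, established human endometrial cancer cell lines. Cells of each line had received either a synthetic copy (mimic) of tRF-20-S998LO9D, which is a fragment of a transfer RNA, or the negative control that goes with such mimics. There were therefore 4 groups of 1 library: RL-95-2 with the mimic, RL-95-2 with the control, HEC-1-A with the mimic and HEC-1-A with the control. The labels name no dose, no time after transfection and no separate cultures of a line, and the study asked which genes differ between mimic and control.

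Proteins that enter the secretory pathway are threaded through the SEC61 channel, folded by chaperones such as BiP (HSPA5) and calreticulin (CALR), and joined by disulphide bonds through protein disulphide isomerases. Proteins that fail to fold are recognised by lectins, drawn back through a membrane complex built around SEL1L and the ubiquitin ligase SYVN1, and destroyed by the proteasome. When unfolded proteins build up, the sensors IRE1 (ERN1), ATF6 and PERK start the unfolded protein response. IRE1 cuts and thereby activates the XBP1 messenger, ATF6 is released as a transcription factor, and PERK curbs translation and favours ATF4. Secretory epithelia such as the endometrial gland depend on this machinery.

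Totals lay between 33575882 and 46220053 counts per library. The epithelial markers EPCAM, CDH1, KRT8, KRT18 and KRT19 stood at 83.2 CPM or more in all 4 libraries. Of 12 markers of blood, endothelial and stromal cells, PTPRC, PECAM1, COL1A2, DCN and LYZ were at 0 counts in both RL-95-2 libraries. CDH5, an endothelial cadherin, had 24.5 CPM in the RL-95-2 mimic and 14.0 CPM in the RL-95-2 control library, and 0 in both HEC-1-A libraries. COL1A1, a collagen chain, had 56.6 and 78.2 CPM in the RL-95-2 mimic and control libraries, and 6.39 and 2.96 CPM in those of HEC-1-A. KRT8, a keratin, had 1444 and 388 CPM in the RL-95-2 mimic and control libraries, and 83.2 and 100.2 CPM in those of HEC-1-A, and PTPRC, CD3E, CD14, LYZ, PECAM1 and VWF stayed under 0.2 CPM in all 4. The part of these markers in the results that follow was not tested. In bulk RNA, fewer cells carrying a transcript and less transcript per cell cannot be told apart.

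In RL-95-2, the mimic library held less messenger for the stress sensor IRE1 and for its transcription factor, for BiP and for the degradation adaptor HERPUD1. Calreticulin, SDF2L1 and CRELD2 were higher there, by less than 2-fold. CPM is the count scaled to library size, and a gene was measured in a line where its mean reached 1 CPM. By 2-fold or more, 7 of 35 measured members were lower and 0 were higher. Among all 13151 genes measured in RL-95-2, 6.52% were at least 2-fold lower and 4.71% at least 2-fold higher. In HEC-1-A, 0 of 35 members were 2-fold apart either way, where 0.239% of all 12981 genes were that much lower and 0.871% that much higher. At 1.5-fold the members numbered 12 lower and 3 higher in RL-95-2, where 15.5% and 14.5% of all genes were, and 0 in HEC-1-A, where 1.32% of genes were lower and 3.44% higher. The share of members higher in RL-95-2 was thus under that of all genes at either fold. DERL3, a derlin of the retrotranslocation complex, was the 36th member and had 2 counts in each RL-95-2 library and 0 in each HEC-1-A library, and 77.0% of its exon bases overlap SMARCB1 on the other strand.

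**Figure D1:**
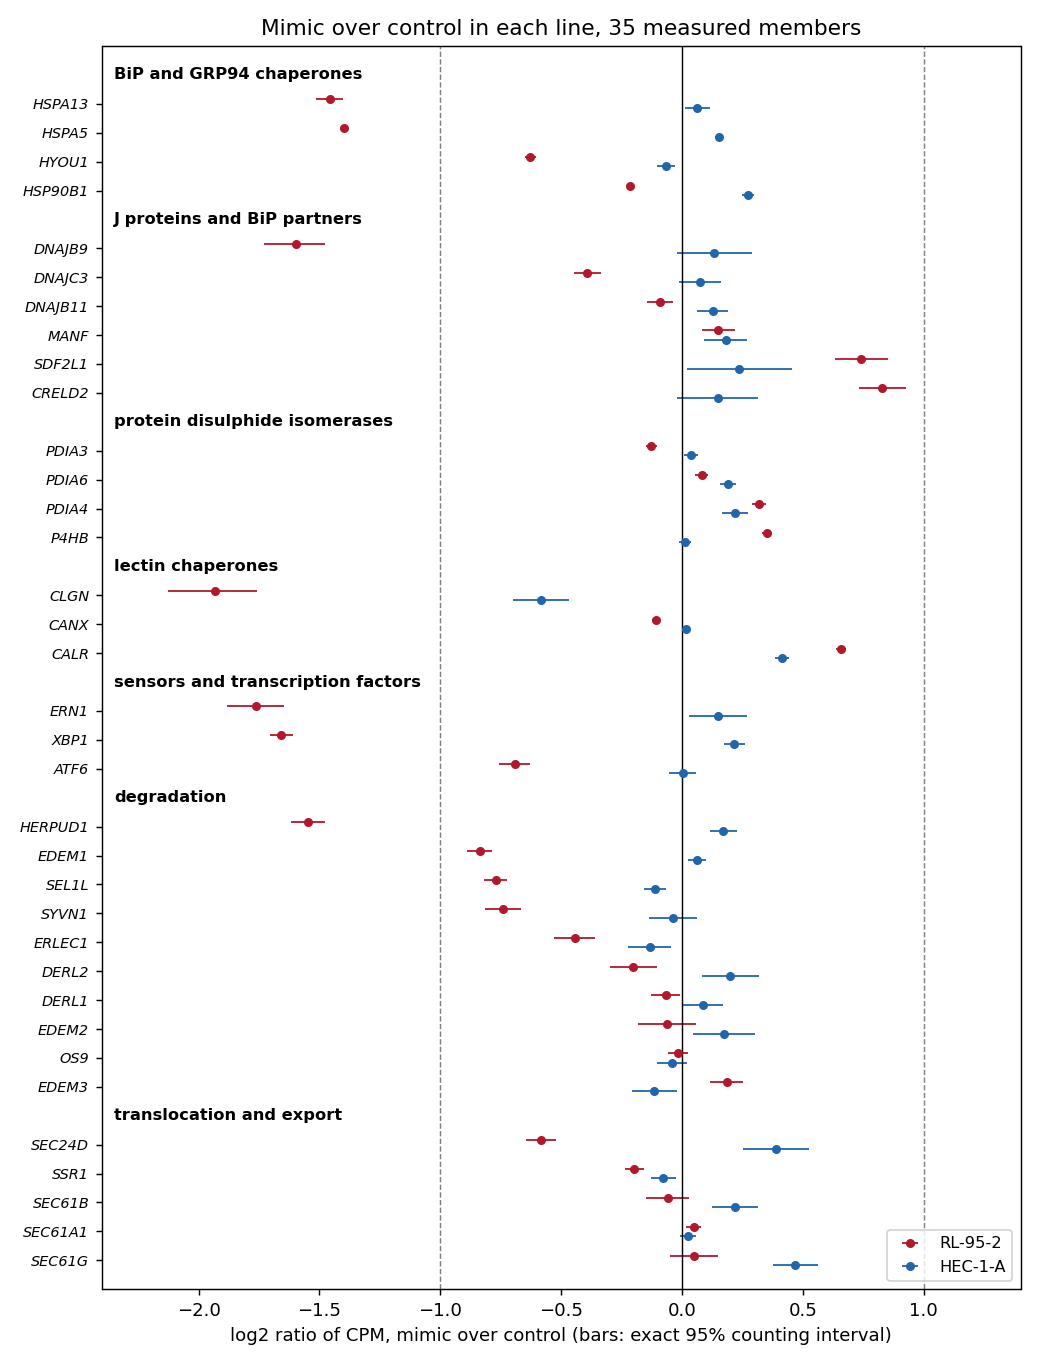
Log2 ratio of CPM, mimic over control, for the 35 measured members in RL-95-2 (red) and HEC-1-A (blue), grouped by role, 1 library against 1 in each line. Bars are exact 95% intervals from the 2 counts, which cover counting error only, and dashed lines mark 2-fold. 7 members lie left of the left dashed line in RL-95-2, and 0 lie beyond either line in HEC-1-A.

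The promoters of this family are where the regulators act, so the sequences are given first. The endoplasmic reticulum stress element, here element I, was searched as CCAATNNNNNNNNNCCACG, element II as ATTGGNCCACG and the unfolded protein response element as TGACGTGG, each on both strands. The window ran from 250 bases before to 50 bases after each RefSeq gene start (GRCh38.p14), with 300 bases per window, and 32 of 36 members had an entry. PDIA3, SEC24D, DERL1 and DERL3 had none. Element I was found in 7 of 32 members and element II in 3 of 32, which is 31.2% for either. Over all 27305 genes with a window, 44 held either element, which is 0.161%. These elements were defined in earlier work on genes of this family, so the share is a description and not an independent finding. The unfolded protein response element was found in 1 member, HYOU1, where it overlaps the distal element II, and in 0.927% of all genes.

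The element sites found in the members are shown so that their spacers and positions can be compared, each read in the direction of the motif, with the matched letters in capitals and the spacer in lower case.
HSPA5 element I, chr9:125241391-125241409: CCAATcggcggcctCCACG
HSP90B1 element I, chr12:103930216-103930234: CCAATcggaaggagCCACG
HSP90B1 element I, chr12:103930321-103930339: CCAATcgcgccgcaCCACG
HYOU1 element II, chr11:119057380-119057390: ATTGGaCCACG
HYOU1 element II, chr11:119057274-119057284: ATTGGaCCACG
SDF2L1 element II, chr22:21642114-21642124: ATTGGtCCACG
CRELD2 element I, chr22:49918554-49918572: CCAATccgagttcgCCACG
PDIA6 element I, chr2:10812853-10812871: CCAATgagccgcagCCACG
CALR element I, chr19:12938384-12938402: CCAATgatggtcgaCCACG
CANX element I, chr5:179698778-179698796: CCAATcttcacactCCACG
XBP1 element I, chr22:28800603-28800621: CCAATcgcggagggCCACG
HERPUD1 element II, chr16:56932025-56932035: ATTGGgCCACG

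The spacers of element I differed from gene to gene. CANX has 4 listed starts, and its site lay in the window of 3 of them.

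The promoter stretches of 5 genes are printed in full because they carry the same elements in genes that stood on opposite sides in RL-95-2. HSPA5, XBP1 and HERPUD1 were among the 7 members lower in the mimic library, while CALR and SDF2L1 were among the 3 with the highest ratios. Each stretch runs 5′ to 3′ on the strand of the gene, from 250 bases before the RefSeq start up to that start or the outer edge of the GENCODE gene, whichever comes first. Capitals mark the letters of the element. In CALR and SDF2L1 the element is on the other strand, so that it reads here as its reverse complement.
HSPA5 promoter, chr9:125241344-125241593, minus strand: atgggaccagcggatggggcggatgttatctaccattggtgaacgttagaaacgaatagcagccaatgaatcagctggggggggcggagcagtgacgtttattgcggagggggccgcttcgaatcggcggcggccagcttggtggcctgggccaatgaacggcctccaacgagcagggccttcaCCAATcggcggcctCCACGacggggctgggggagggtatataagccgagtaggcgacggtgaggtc
XBP1 promoter, chr22:28800598-28800819, minus strand: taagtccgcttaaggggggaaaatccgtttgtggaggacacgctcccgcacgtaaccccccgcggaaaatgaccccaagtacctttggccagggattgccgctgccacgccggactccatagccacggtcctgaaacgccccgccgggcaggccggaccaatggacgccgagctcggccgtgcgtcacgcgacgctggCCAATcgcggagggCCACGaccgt
HERPUD1 promoter, chr16:56931892-56932047, plus strand: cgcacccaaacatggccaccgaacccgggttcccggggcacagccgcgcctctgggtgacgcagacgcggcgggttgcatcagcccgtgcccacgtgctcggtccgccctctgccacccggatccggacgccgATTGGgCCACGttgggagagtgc
CALR promoter, chr19:12938359-12938577, plus strand: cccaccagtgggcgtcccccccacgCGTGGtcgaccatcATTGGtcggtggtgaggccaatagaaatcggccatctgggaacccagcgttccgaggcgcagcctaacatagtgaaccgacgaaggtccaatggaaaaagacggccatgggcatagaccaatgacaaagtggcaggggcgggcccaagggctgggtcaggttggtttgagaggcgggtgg
SDF2L1 promoter, chr22:21642052-21642260, plus strand: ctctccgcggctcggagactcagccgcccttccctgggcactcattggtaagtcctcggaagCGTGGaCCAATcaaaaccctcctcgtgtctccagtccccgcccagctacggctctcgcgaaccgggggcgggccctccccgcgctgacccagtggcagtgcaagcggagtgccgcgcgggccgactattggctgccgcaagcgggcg

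**Figure D2:**
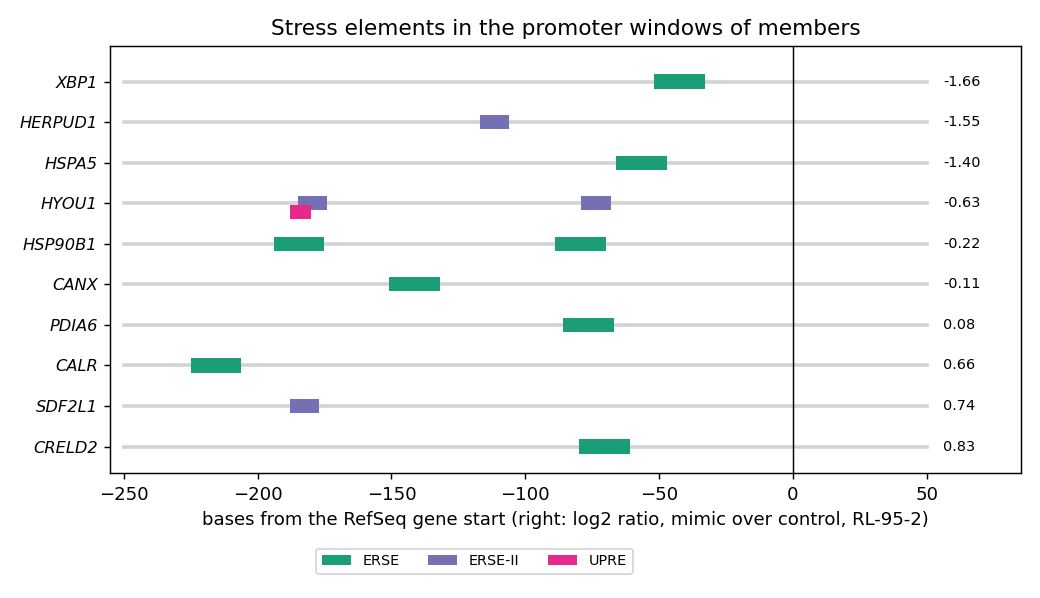
Positions of the elements in the promoter windows of the 10 members that hold element I (ERSE) or element II (ERSE-II), in bases from the RefSeq gene start, with the unfolded protein response element (UPRE) of HYOU1. Genes run from the lowest log2 ratio in RL-95-2 (XBP1, -1.66) to the highest (CRELD2, 0.83), shown at the right. For PDIA6 the start with the element is drawn.

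Members that held either element lay on both sides. Of the 7 members lower in the RL-95-2 mimic library, 3 held element I or II, and of the 25 other members with a window, 7 did. A match of letters is a description of these windows only.

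BiP and GRP94 chaperones were all below 0 in RL-95-2 and between -0.07 and 0.27 in HEC-1-A. Their median log2 ratio was -1.01 in RL-95-2 and 0.11 in HEC-1-A, 4 of 4 members measured in each. HSPA5 encodes BiP, the HSP70 of the endoplasmic reticulum and a repressor of all the sensors, and lies on chromosome 9 at 125234853 to 125241330 (GRCh38, minus strand). It had 1029 CPM in the RL-95-2 mimic and 2713 CPM in the RL-95-2 control library, and 1512 and 1360 CPM in the mimic and control libraries of HEC-1-A. The RL-95-2 control library was the highest of the 4 and the RL-95-2 mimic library the lowest. The ratio was 2.64-fold lower in RL-95-2 (log2 ratio -1.40, 95% counting interval -1.41 to -1.38) and had a log2 value of 0.15 in HEC-1-A (0.14 to 0.17). The intervals are narrow because the counts are high, and they hold no spread between cultures.

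HSPA13, a microsomal HSP70 relative, had 73.1 CPM in the RL-95-2 mimic and 201 CPM in the RL-95-2 control library, and 162 and 155 CPM in the HEC-1-A mimic and control libraries. Its log2 ratios were -1.46 and 0.06, so the RL-95-2 mimic library alone stood apart. HSP90B1, which encodes the HSP90 paralog GRP94, had 1344 CPM in the RL-95-2 mimic and 1562 CPM in the RL-95-2 control library, and 861 and 713 CPM in the HEC-1-A mimic and control libraries. Its log2 ratios of -0.22 and 0.27 lay closer to 0 than the RL-95-2 ratio of HSPA5. HYOU1, the exchange factor that releases nucleotide from BiP, had log2 ratios of -0.63 and -0.07. Per length, HSPA5 stood at 0.558 times the FPKM of HSP90B1 in the RL-95-2 mimic library, against 1.27 times in the RL-95-2 control library. In HEC-1-A the quotient was 1.28 with the mimic and 1.39 with the control.

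J proteins and other BiP partners lay on both sides of 0 in RL-95-2, 3 of 6 above, and 6 of 6 lay above 0 in HEC-1-A. DNAJB9, a J protein that recruits BiP to IRE1 and holds that sensor inactive, had 14.9 CPM in the RL-95-2 mimic and 45.2 CPM in the RL-95-2 control library, and 19.1 and 17.4 CPM in the HEC-1-A mimic and control libraries. It was 3.03-fold lower in RL-95-2 (log2 ratio -1.60, interval -1.73 to -1.48), with 6.45% of its exon bases overlapping THAP5 on the other strand. SDF2L1, a partner of the J protein DNAJB11, had 42.3 CPM in the RL-95-2 mimic and 25.3 CPM in the RL-95-2 control library, and 10.1 and 8.60 CPM in the HEC-1-A mimic and control libraries. CRELD2, a secreted stress-induced protein with isomerase activity, had 56.3 CPM in the RL-95-2 mimic and 31.7 CPM in the RL-95-2 control library, and 16.4 and 14.8 CPM in those of HEC-1-A. For these 2 genes both RL-95-2 libraries were above both HEC-1-A libraries, and the mimic library was the higher in each line. Their log2 ratios in RL-95-2 were 0.74 (interval 0.63 to 0.85) and 0.83 (0.73 to 0.93), and in HEC-1-A 0.24 and 0.15. MANF, a secreted BiP cofactor, had 0.15 and 0.18, DNAJB11 -0.09 and 0.13, and DNAJC3, the J protein that restrains PERK, -0.39 and 0.07.

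Protein disulphide isomerases, which make and shuffle disulphide bonds, differed little between mimic and control. Their log2 ratios ran between -0.13 (PDIA3) and 0.35 (P4HB) in RL-95-2 and between 0.01 (P4HB) and 0.22 (PDIA4) in HEC-1-A. PDIA6 had 0.08 and 0.19 and overlaps ATP6V1C2 on the other strand over 25.2% of its exon bases.

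Among the lectin chaperones, which hold newly glycosylated proteins, the soluble calreticulin and the testis-type calmegin pointed opposite ways. CALR had 1089 CPM in the RL-95-2 mimic and 691 CPM in the RL-95-2 control library, and 563 and 423 CPM in the HEC-1-A mimic and control libraries. Its log2 ratio was 0.66 in RL-95-2 (interval 0.64 to 0.68) and 0.41 in HEC-1-A (0.38 to 0.44), and the mimic library was the higher in both lines. CLGN, known for its role in sperm proteins, had 6.51 CPM in the RL-95-2 mimic and 25.01 CPM in the RL-95-2 control library, and 26.4 and 39.6 CPM in the HEC-1-A mimic and control libraries. It was the lowest member in each line, at -1.93 (interval -2.13 to -1.76) and -0.58 (-0.70 to -0.47), and the only one of the 7 lower members that was also below 0 in HEC-1-A. CANX, the membrane-bound calnexin, had -0.11 and 0.02.

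**Figure D3:**
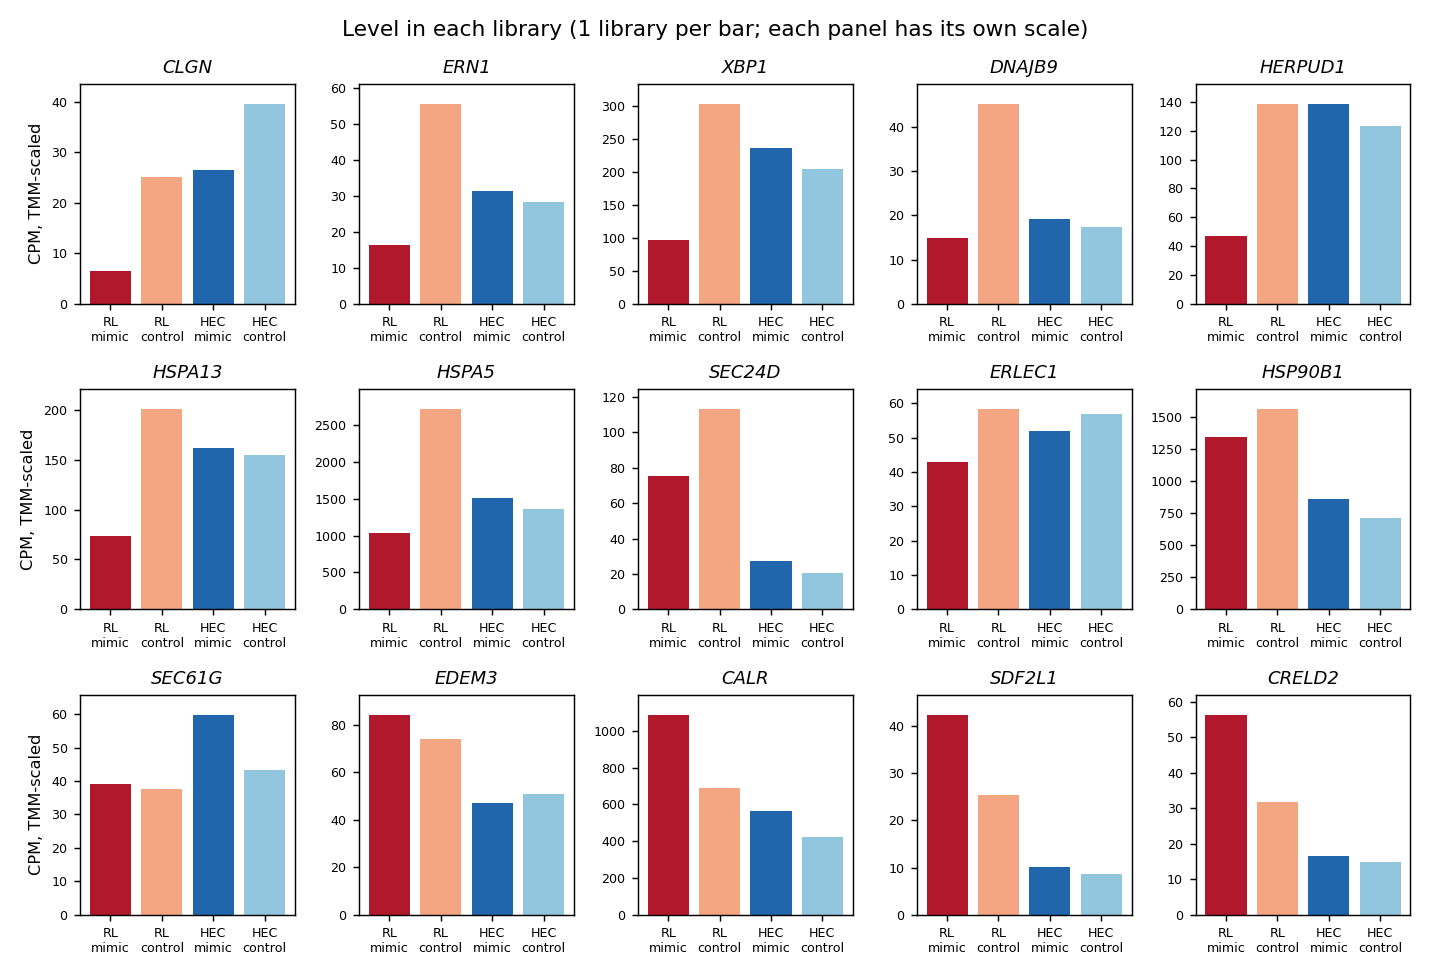
CPM scaled by TMM in each of the 4 libraries for the 15 members given in full, 1 bar per library, each panel with its own axis from 0. Panels run from the lowest log2 ratio in RL-95-2 (CLGN) to the highest (CRELD2). In the panels of ERN1, XBP1, DNAJB9, HSPA13 and HSPA5 the RL-95-2 control bar is the tallest and the RL-95-2 mimic bar the shortest.

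The sensors and their transcription factor, 3 of 3 measured, were lower in the RL-95-2 mimic library. ERN1, which encodes the kinase and ribonuclease IRE1, had 16.3 CPM in the RL-95-2 mimic and 55.6 CPM in the RL-95-2 control library, and 31.3 and 28.3 CPM in the HEC-1-A mimic and control libraries. XBP1, whose messenger IRE1 cuts, had 96.3 CPM in the RL-95-2 mimic and 304 CPM in the RL-95-2 control library, and 237 and 204 CPM in those of HEC-1-A. Both genes were highest in the RL-95-2 control and lowest in the RL-95-2 mimic library, with the HEC-1-A libraries between. ERN1 was 3.39-fold lower (log2 ratio -1.76, interval -1.88 to -1.65) and XBP1 3.15-fold lower (-1.66, interval -1.71 to -1.61) in RL-95-2, with 0.15 and 0.22 in HEC-1-A. On FPKM with 0.1 added, the RL-95-2 log2 ratios were weaker, -1.37 for ERN1 and -1.60 for XBP1. Of the members, ERN1 had the widest gap between its CPM and FPKM ratios in that line (0.356). ATF6, the sensor that is itself a transcription factor, had log2 ratios of -0.69 and 0.00. Gene counts do not separate the cut from the uncut XBP1 messenger, so IRE1 activity was not measured.

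Degradation genes were mostly below 0 in RL-95-2 with TMM scaling, with 9 of 10 measured members there and 5 of 10 in HEC-1-A. Of all genes, 50.1% lay above 0 in RL-95-2 and 53.6% in HEC-1-A. The RL-95-2 counting intervals of EDEM2 and OS9 included 0, and scaling by library total put DERL1, EDEM2 and OS9 above 0 there. HERPUD1, a membrane adaptor that is among the most inducible genes of the response, had 47.3 CPM in the RL-95-2 mimic and 138 CPM in the RL-95-2 control library, and 139 and 123 CPM in the HEC-1-A mimic and control libraries. It was 2.92-fold lower in RL-95-2 (log2 ratio -1.55, interval -1.62 to -1.48) and had 0.17 in HEC-1-A, so the RL-95-2 mimic library stood apart from 3 like values. The mannosidase-like EDEM1 (-0.84), the ligase complex subunits SEL1L (-0.77) and SYVN1 (-0.74) and the lectin ERLEC1 (-0.44) followed without reaching 2-fold. ERLEC1 had 42.9 CPM in the RL-95-2 mimic and 58.3 CPM in the RL-95-2 control library, and 51.9 and 57.0 CPM in the HEC-1-A mimic and control libraries. At -0.13 it was among the 3 lowest members in HEC-1-A, beside CLGN and EDEM3. EDEM3 had 84.3 CPM in the RL-95-2 mimic and 74.2 CPM in the RL-95-2 control library, and 46.9 and 50.8 CPM in the HEC-1-A mimic and control libraries. With TMM scaling it was the only degradation gene above 0 in RL-95-2 (0.18). DERL1, DERL2, EDEM2 and the lectin OS9 had RL-95-2 log2 ratios between -0.20 and -0.02.

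Translocation and export genes were near 0 in RL-95-2 except SEC24D, a cargo adaptor of the COPII coat. SEC24D had 75.6 CPM in the RL-95-2 mimic and 113 CPM in the RL-95-2 control library, and 27.1 and 20.7 CPM in the HEC-1-A mimic and control libraries. Its log2 ratios were -0.58 (interval -0.65 to -0.52) and 0.39 (0.25 to 0.53), with both RL-95-2 libraries above both HEC-1-A libraries. SEC61G, a small subunit of the translocation channel, had 39.0 CPM in the RL-95-2 mimic and 37.7 CPM in the RL-95-2 control library, and 59.8 and 43.2 CPM in the HEC-1-A mimic and control libraries. At 0.47 it was the highest member in HEC-1-A, and it had 0.05 in RL-95-2. SEC61A1, SEC61B and SSR1, which form the channel and an associated complex, lay between -0.20 and 0.22 in both lines.

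The members as a whole had a median log2 ratio of -0.20 in RL-95-2 and 0.13 in HEC-1-A, where the medians of all measured genes were 0.00 and 0.02. Above 0 were 10 of 35 members in RL-95-2 and 27 of 35 in HEC-1-A, against 50.1% and 53.6% of all genes. Scaling by library total moved the median of all genes in RL-95-2 to 0.13 and left 17 of 35 members above 0 there. The median of the members then lay 0.20 below that of all genes, as it did with TMM scaling. The 7 lower members were a separate group by size: their log2 ratios lay between -1.93 and -1.40, and the next member, EDEM1, had -0.84. The same 7 genes were at least 2-fold lower under every scaling, prior count and FPKM setting tried. The middle 95% of all genes lay between -1.55 and 1.22 in RL-95-2, and between -0.48 and 0.68 in HEC-1-A. The summed CPM of all members was 10371 in the RL-95-2 mimic and 12855 in the RL-95-2 control library, and 8867 and 8240 in the HEC-1-A mimic and control libraries. Without HSPA5 the sums were 9342 and 10142 in RL-95-2, and 7355 and 6881 in HEC-1-A, so HSPA5 made up most of the gap in RL-95-2.

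Counting intervals of 12 of 35 members lay below 0 in RL-95-2 and above 0 in HEC-1-A, and 1 member (EDEM3) had the reverse. Of all 11913 genes measured in both lines, 15% had the first pattern and 11.9% the reverse. In both lines above 0 were 5 members (SDF2L1, MANF, PDIA4, PDIA6 and CALR), and in both below 0 were 5 (HYOU1, CLGN, SEL1L, ERLEC1 and SSR1), against 10% and 8.54% of all genes. For the other 12 an interval included 0. With 1 library per line and transfection, the difference between the lines in their response was not tested.

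Over both lines, edgeR's quasi-likelihood test called 0 of 35 members higher and 0 lower, and 0% of all 15957 genes. By edgeR's test at an unadjusted p under 0.05 there was 1 member, CLGN (log2 fold change -1.25, SE 0.38, unadjusted p = 0.0141, adjusted p = 0.9999, below 0 in 2 of 2 lines), and 167 genes in all. DESeq2 and limma-voom also called 0 members, with 2 and 1 at an unadjusted p under 0.05. CALR, above 0 in 2 of 2 lines, had a log2 fold change of 0.53 (SE 0.27, adjusted p = 0.9999). HSPA5 had -0.62 (SE 0.42) and XBP1 -0.72 (SE 0.46), each below 0 in 1 of 2 lines. Without HEC-1-A the median over members was -0.20, and without RL-95-2 it was 0.13.

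Levels of different genes were compared per length. By FPKM, HSPA5 was the highest member in the RL-95-2 control library (599) and in the HEC-1-A mimic (334) and control (307) libraries. In the RL-95-2 mimic library it stood at 250 FPKM and took rank 5, behind CALR (544), HSP90B1 (448), P4HB (340) and CANX (314). At the low end, ERN1 had between 2.53 and 6.71 FPKM and CLGN between 2.03 and 11.5 FPKM over the 4 libraries. Apart from DERL3, ERN1 was the lowest member in the RL-95-2 control library and in both HEC-1-A libraries, and CLGN was the lowest in the RL-95-2 mimic library.

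Between the lines, 7 of 35 members were higher in RL-95-2 and 2 lower at an adjusted p under 0.05 (edgeR, transfection in the model, n = 2 libraries per line). Of all genes, 18.3% were higher and 16.7% lower, so the share of members higher is near the background and the share lower is under it. SEC24D stood 3.90-fold higher in RL-95-2 (log2 fold change 1.96, SE 0.31, adjusted p = 0.00412). PDIA4, a large disulphide isomerase, had 511 and 410 CPM in the RL-95-2 mimic and control libraries, and 151 and 130 CPM in those of HEC-1-A, which is 3.26-fold (adjusted p = 0.00355). SDF2L1 was 3.51-fold (adjusted p = 0.00402) and CRELD2 2.71-fold higher (adjusted p = 0.00924). HYOU1 (2.47-fold), DNAJC3 (2.19-fold) and OS9 (1.84-fold) also passed. EDEM1 and CLGN were lower in RL-95-2, by a log2 fold change of -1.10 (adjusted p = 0.0333) and -1.33 (adjusted p = 0.0351). EDEM1 had 104 and 186 CPM in the RL-95-2 mimic and control libraries, and 305 and 292 CPM in those of HEC-1-A. The call for CLGN was lost without the transfection in the model (adjusted p = 0.227).

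The line difference was also taken within each transfection, 1 library against 1. Among the mimic libraries, 21 of 35 members were higher in RL-95-2, with a median log2 ratio of 0.16, and among the control libraries 31 of 35 were, with a median of 0.55. Of the 11913 genes measured in both lines, 51.6% were higher in RL-95-2 among the mimic and 51.4% among the control libraries, with medians of 0.04 and 0.02. In 10 members the ratio was below 0 with the mimic and above 0 with the control, and in 0 members the other way round, against 11.4% and 11.5% of all genes. The difference between the transfections was not tested. HSPA5 stood at a log2 ratio, RL-95-2 over HEC-1-A, of -0.55 with the mimic and 0.997 with the control, and XBP1 at -1.30 with the mimic and 0.57 with the control. SDF2L1, by contrast, stood at 2.06 with the mimic and 1.55 with the control. These comparisons use the same 4 libraries as the ratios above and are no independent evidence.

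**Figure D4:**
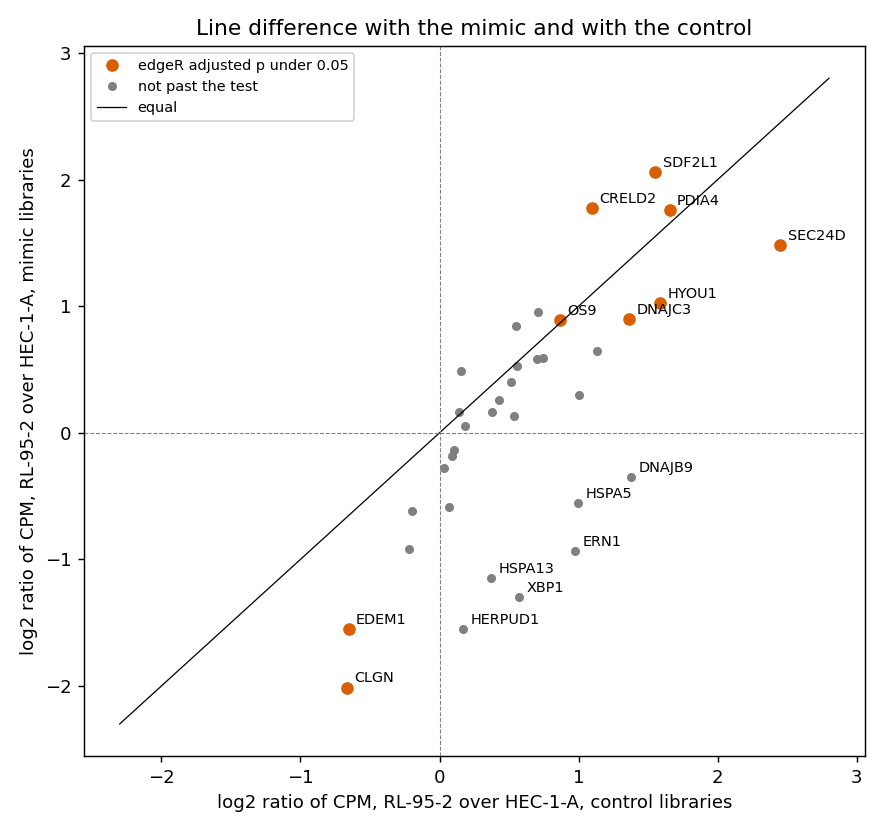
Log2 ratio of CPM, RL-95-2 over HEC-1-A, in the mimic libraries (vertical) and in the control libraries (horizontal), 1 point per member. Orange points passed edgeR's test between the lines (7 higher and 2 lower in RL-95-2). XBP1, ERN1, HERPUD1, HSPA13, HSPA5 and DNAJB9 lie right of 0 and below 0.

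Other genes of the secretory pathway were grouped in 7 lists by role. Apart from the PERK arm, the list medians in RL-95-2 lay between -0.28 (stress sensors, proteases and BiP cofactors) and -0.03 (other degradation genes). The median of the members there was -0.20. In each of the 7 lists, edgeR called 0 genes between mimic and control over both lines. PERK arm targets are also driven by other kinases of the initiation factor eIF2. Among the targets, 5 of 6 were at least 2-fold lower in RL-95-2, against 6.52% of all genes. Their median was -2.23, and the list was chosen with earlier results of these data known. The transcription factor CHOP (DDIT3) had 15.8 CPM in the RL-95-2 mimic and 136 CPM in the RL-95-2 control library (log2 ratio -3.10), and the phosphatase subunit PPP1R15A 34.1 and 242 CPM (-2.83). ASNS, which makes asparagine, had -2.04, and ATF4 itself, which is regulated by translation, -0.79. In HEC-1-A the median of the list was 0.22, with 5 of 6 genes above 0.

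Among stress sensors, proteases and BiP cofactors, 1 of 12 measured genes was at least 2-fold lower in RL-95-2 (8.33%, against 6.52% of all genes). It was CREB3L2, a membrane-bound transcription factor of the ATF6 type (-1.38). The site-2 protease MBTPS2, which releases ATF6, had -0.93, while the SDF2L1 relative SDF2 had 0.50 and CREB3 0.39. EIF2AK3, which encodes the sensor PERK, had log2 ratios of -0.76 in RL-95-2 and 0.13 in HEC-1-A. Among 14 oxidative folding genes, 1 was at least 2-fold higher (7.14%, against 4.71% of all genes), the membrane-bound thioredoxin-like TMX1 (1.01). TXNDC5 (0.50) followed, and the disulphide-bond oxidase ERO1B (-0.62) and PDIA5 (-0.61) were the lowest. The lists of N-glycosylation, translocon, COPII and other degradation genes had 0 genes 2-fold apart in either line. Their RL-95-2 medians lay between -0.17 and -0.03.

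Within those 4 lists, the lowest and highest genes in RL-95-2 were as follows. The glycoprotein-folding sensor UGGT2 (-0.96) and the catalytic subunit STT3A (-0.40) were lowest in the glycosylation list, and the lectin MLEC (0.47) and the mannosidase MAN1B1 (0.36) highest. The J protein SEC63 (-0.87) and TRAM1 (-0.41) stood against TRAM2 (0.61) and the signal peptidase subunit SPCS3 (0.52). Among COPII genes, MIA3 (-0.70) and SEC23B (-0.63) stood against SEC24C (0.48) and SAR1A (0.35). Among other degradation genes, HERPUD2 (-0.84) and SELENOS (-0.80) stood against the segregase VCP (0.87) and its cofactor UFD1 (0.97), which the count table lists by an older symbol. No test was available for these ratios within the line.

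**Figure D5:**
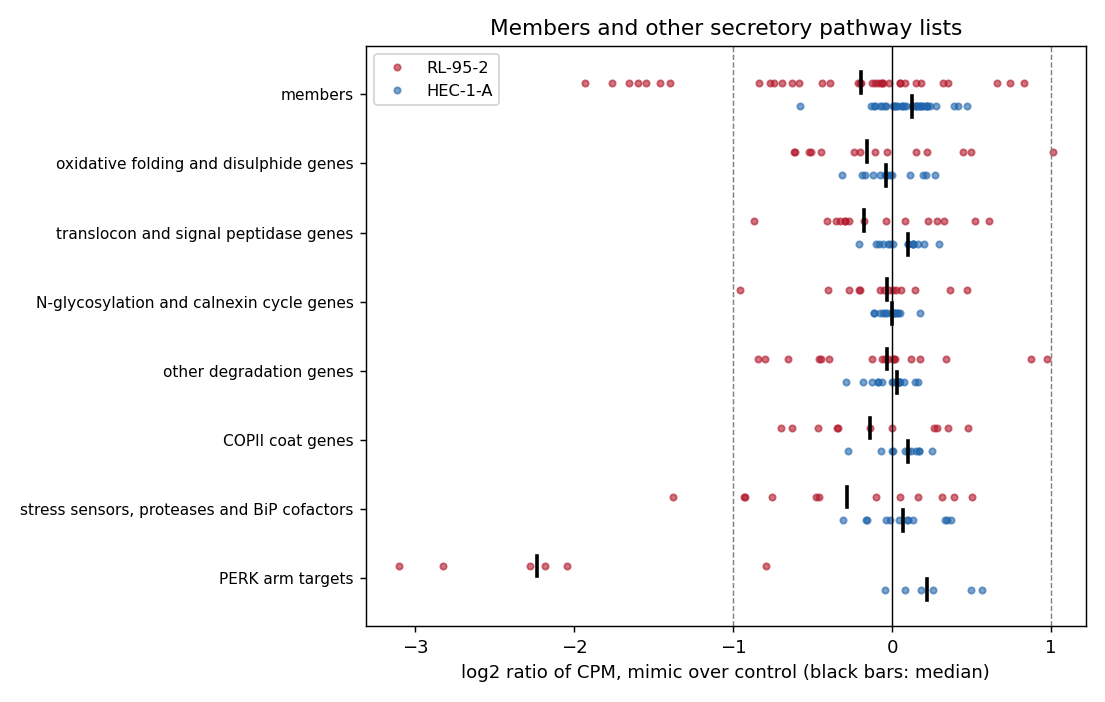
Log2 ratio of CPM, mimic over control, for each measured gene of the members and of 7 other lists, in RL-95-2 (red) and HEC-1-A (blue). Black bars are medians and dashed lines 2-fold. The PERK arm targets have the lowest median in RL-95-2 (-2.23) and the highest in HEC-1-A (0.22).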

How the data were processed

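Poly(A) RNA from 4 libraries was sequenced, 1 per cell line and transfection. The deposited tables hold a raw count and an FPKM value for each gene. The tools CASAVA and HISAT2 and the build GRCh38 (hg38) are credited to the submitters' processing notes. Which counter, annotation and strand rule made the table is not given in the sources used here, so reads of genes that overlap on opposite strands cannot be told apart (by GENCODE 29, exons of 18 members overlap a gene on the opposite strand, 12 of them a gene listed in the count table). Multi-copy genes were not treated separately, and 4 members have a pseudogene named after them. The labels name no separate cultures. In the paired fit, the residual spread behind a p-value is the difference between the lines in their response to the mimic. Spread between cultures and technical spread cannot be told apart from it. Intervals cover counting error only.

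Counts were scaled by TMM and tested with edgeR 4.0.16 (R 4.3.3), with a filter on low counts by transfection, quasi-likelihood F tests and Benjamini-Hochberg adjustment over 15957 genes. Cell line and transfection were in the model, which left 1 residual degree of freedom, and the line named in the labels paired the libraries. The SE was derived from the F statistic. Within a line, log2 ratios of CPM carry an added prior count of 2, an exact 95% interval from the counts and no p-value. Levels between genes were compared by FPKM. Members given in full were HSPA5, HSP90B1, XBP1, HERPUD1, those 2-fold apart in a line, and the 3 highest and lowest ratios in each line. Other lists gave their 2 highest and 2 lowest genes in RL-95-2, or fewer, and EIF2AK3 besides. The model was also run on simulated counts in which both lines had the same response to the mimic. In the data the ratios of the lines differed, so that run is no check of the calls here. No protein sequences were used here. Members and lists were chosen with earlier results of these data known. Alternatives were DESeq2 1.42.0, limma 3.58.1 (voom, and FPKM with added 1 or 0.1), RLE factors, library totals, other filters, prior counts and folds, no block, and each line or transfection left out. Promoter sequences are from RefSeq (GRCh38.p14).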

Additional observations from a re-analysis of the deposited data

Results flagged for a closer look

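In 5 members the counting intervals lay on opposite sides of 0 in the 2 lines and the responses were at least 2-fold apart. The RL-95-2 response minus the HEC-1-A response, by log2 ratios of CPM, was -1.91 for ERN1, -1.87 for XBP1, -1.72 for HERPUD1, -1.55 for HSPA5 and -1.52 for HSPA13. Of all 11913 genes measured in both lines, 15% had intervals below 0 in RL-95-2 and above 0 in HEC-1-A, and 11.9% the reverse. How many of those were also at least 2-fold apart was not counted, so the 5 members have no background share. The difference was not tested, since each line had 1 library per transfection.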

How the results depend on the processing

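The 7 members lower in RL-95-2 were the same 7 genes under each scaling, prior count and FPKM setting. At 1.5-fold there were 12 lower and 3 higher members, where 15.5% and 14.5% of all genes were. The RL-95-2 median over members was -0.0688 with library totals, -0.0685 on log2(FPKM + 1) and -0.0710 on log2(FPKM + 0.1), and -0.42 over the 24 members whose exons overlap no gene of the count table on the opposite strand, a restriction chosen after seeing the data, with 6 of the 24 at least 2-fold lower. The HEC-1-A median was 0.0642 on log2(FPKM + 1). Signs changed with scaling only in members with a log2 ratio within 0.127 of 0 in RL-95-2 and within 0.0252 in HEC-1-A. Of all genes 2-fold apart in RL-95-2, 41.9% were higher with TMM, 55.8% with library totals and 57.2% on log2(FPKM + 0.1), and in HEC-1-A 78.5% with TMM and 50% on log2(FPKM + 1). The cause was not tested.

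Between mimic and control over both lines, no setting called a member. Over all genes, DESeq2 called 1 higher and 1 lower, and limma on log2(FPKM + 0.1) called 2 higher and 1 lower. The paired fit is the one reported. With no replicate block it gave 0 calls between mimic and control, with 0 members at an unadjusted p under 0.05. The median over members ran from -0.20 to 0.13 with a line left out.

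Between the lines, 12 members were called higher by DESeq2, 11 with library totals, and 12 higher and 1 lower with no replicate block. The 9 calls were shared by each setting except that without the block, which shared 8. Over all genes, 1662 were higher and 1651 lower with at least 1 CPM in all 4 libraries, where fewer genes were tested. The median over members ran from 0.16 to 0.55 with a transfection left out.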

Other observations

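In the 7 other lists, genes also passed edgeR's test between the lines. Higher in RL-95-2 were 4 of 14 oxidative folding, 2 of 15 translocon, 3 of 14 glycosylation and 3 of 18 other degradation genes. For COPII, stress sensor and PERK arm genes it was 1 of 11, 1 of 13 and 0 of 6. Lower were 1 oxidative folding gene, 2 translocon genes and 2 PERK arm targets. Over all genes, 18.3% were higher and 16.7% lower. Examples follow. ERO1A, the oxidase that recharges disulphide isomerases, had 193 and 275 CPM in the RL-95-2 mimic and control libraries, and 45.6 and 47.0 CPM in those of HEC-1-A (edgeR log2 fold change 2.32, adjusted p = 0.00106). MOGS, the first glucosidase of N-glycan trimming, stood at 154 and 148 CPM in the RL-95-2 libraries and 46.8 and 48.7 CPM in those of HEC-1-A (1.66, adjusted p = 0.00246). SEC63 was lower in RL-95-2 (-1.05, adjusted p = 0.0334). PPP1R15A was lower in RL-95-2 as well (-3.17, adjusted p = 0.0273), with 971 and 689 CPM in the HEC-1-A mimic and control libraries.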
